A study of Mus musculus with 10 samples.

Results

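The mouse genome names many genes Zfp plus a number, for zinc finger protein, and most encode proteins with rows of C2H2 zinc fingers, small zinc-binding folds that read DNA. This account covers the Zfp genes expressed in microglia, the brain's own macrophages, in mice given lipopolysaccharide (LPS) or saline. Members were chosen by name and by summed count: rows of the raw count table whose symbol is Zfp followed only by digits and whose counts over the 10 libraries sum to at least 1000. The rule kept 204 of 337 such genes, in a table of 40789 genes, and left out 133, of which 5 had no count. The sum spans both groups, and all 204 were protein-coding and passed the filter on low counts. The family was proposed with its direction in these data known, so its counts are a description and not independent evidence of that direction.

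All 10 mice were female C57BL6/J animals of 2 to 3 months and CX3CR1+/egfp, with 1 copy of the fractalkine receptor gene carrying a green fluorescent reporter. Treated mice (n = 5) had 4 mg/kg LPS, a bacterial cell wall component, put into the peritoneum, and control mice (n = 5) had saline. Cells with a high reporter signal were sorted from the cortex 24 h later, and each library came from 1 mouse, with RNA amplified before library construction. The sort rests on a gene that other mononuclear phagocytes also express, and every control carried the reporter allele too.

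Libraries held 11577295 to 15274421 counts in saline and 12928007 to 15332121 in LPS. The summed level of 10 microglial markers was 52964 to 59952 CPM (counts scaled to library size) in saline and 17074 to 30507 CPM in LPS, with 6 of the 10 called lower and 1 higher. Summed markers of 7 monocyte genes were 14.4 to 22.3 CPM in saline and 78.1 to 219 CPM in LPS, although of the 6 tested 3 were called higher and 2 lower. Those of 6 endothelial genes were 50.6 to 74.4 and 4.77 to 10.8 CPM, with Cldn5 at 0. Astrocyte markers summed to 359 to 415 CPM in saline and 137 to 346 CPM in LPS, oligodendrocyte markers to 103 to 129 and 90.2 to 118 CPM, and neuronal markers to 4.49 to 10.2 and 3.93 to 7.14 CPM. Neutrophil markers, with Mpo at 0, reached 0.988 CPM in saline and 19.9 CPM in LPS, and lymphocyte markers stayed at or below 2.01 CPM. The part of these other cells in the results on Zfp genes was not tested, and in bulk libraries fewer cells of a type and less RNA per cell cannot be told apart.

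Many Zfp genes carry a KRAB domain in front of their fingers. KRAB proteins bind the scaffold protein Trim28, which brings histone methyltransferase and heterochromatin proteins to the bound DNA, and many KRAB proteins silence retroviruses and transposons. They sit in clusters of close copies that arose by duplication. Some carry a SCAN domain, with or without KRAB. Other Zfp genes have no KRAB domain and include transcription activators, ubiquitin ligases and Zfp36, which binds RNA rather than DNA. A KRAB profile search of GENCODE proteins found the domain in 117 members and not in 86, and no protein was found for Zfp939. The median number of C2H2 fingers was 12 in KRAB members and 7 in the others.

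Promoter sequences from RefSeq (GRCm38.p6) were matched for 173 of the 204 members, and 3 are shown because the members changed and their upstream bases differ in a motif that recurs in the family. Each run gives the 120 bases before the annotated start, 5′ to 3′ on the gene's strand, and capitals mark a match to the core letters of the ZFP143 motif on either strand, which is no evidence of binding. Zfp60 and Zfp712 are among the genes that fell, and Zfp330 had the largest rise.
Zfp60 (chr7:27731289-27731408, plus strand): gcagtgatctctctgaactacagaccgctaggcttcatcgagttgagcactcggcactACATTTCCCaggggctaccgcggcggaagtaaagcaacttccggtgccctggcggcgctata
Zfp712 (chr13:67061171-67061290, minus strand): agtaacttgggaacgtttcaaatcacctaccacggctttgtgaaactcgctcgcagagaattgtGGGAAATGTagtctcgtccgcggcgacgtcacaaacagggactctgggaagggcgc
Zfp330 (chr8:82774146-82774265, minus strand): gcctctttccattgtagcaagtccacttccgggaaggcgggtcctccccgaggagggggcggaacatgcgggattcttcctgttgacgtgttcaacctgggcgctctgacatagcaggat

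The core searched was ACANNTCCC on both strands, in windows of 250 bases before to 50 after the start. It was added to the motifs after some of these sequences had been read. The core was in 41 of 173 member promoters (23.7%), in 31 of 108 KRAB members (28.7%) and in 1743 of 27025 promoters of all genes (6.45%). Among members called lower it was in 19 of 76 (25%), so its share there was close to that in all members. Among members called higher it was in 1 of 6 (16.7%), and a link of the core with direction was not tested. The YY1 motif GCCATNTTG was in 6.94% of member promoters and 2.65% of all promoters. An interferon response core, TTTCNNTTT, was in 8.67% of members, 14.5% of members called lower and 10.7% of all. The YY1 share among members called lower was 9.21%. A kappa B core, GGGNNTTCC, was in 6.36% of members, 5.26% of those called lower and 5.72% of all. In the same order the shares were 4.62%, 6.58% and 7.93% for AP-1 (TGANTCA), 2.31%, 2.63% and 1.88% for a cyclic AMP element (TGACGTCA), and 6.94%, 10.5% and 7.24% for the E-box CACGTG. A promoter can hold more than 1 motif, and matches of different motifs may overlap. Median GC content was 53.2% in KRAB members, 59.8% in the other members and 61.0% in all genes with a sum of at least 1000, and the median number of CpG pairs in 300 bases was 12, 19 and 21.

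Zfp genes were lower in LPS far more often than higher. By edgeR's quasi-likelihood test with Benjamini-Hochberg adjustment at 0.05 over all genes, 90 of 204 members fell (44.1%) and 7 rose (3.43%). Among all 13793 genes tested, 22.5% were called lower and 22.4% higher, and among the 8963 genes with a sum of at least 1000 the shares were 26.6% and 26.9%. At an unadjusted p under 0.05, 101 members were lower and 10 higher, beside 3675 and 3698 of the 13793 genes. The median log2 fold change of LPS over saline was -0.40 over the members, with a middle range of -0.82 to -0.10, and 0.00 over all genes tested. The fall was at least 2-fold in 35 of the called members and the largest rise was 1.86-fold, while 1370 of all genes tested fell and 1432 rose at least 2-fold. The highest and lowest mice of the groups did not overlap in 67 members that were lower (32.8%) and 3 that were higher (1.47%), against 15.7% and 14.1% of all genes tested. For genes with a sum of at least 1000 the shares without overlap were 18.7% lower and 17.7% higher. The share of members called higher was 1.96% without saline replicate 1 and also without saline replicate 4.

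Gene length moved with the direction of change in these libraries. Length here is an exonic length inferred from the authors' length-normalised values (RPKM) and put on the scale of GENCODE exon lengths. Over 13199 genes with a length, the log2 fold change had a Spearman correlation of -0.48 with length across genes, which are not independent replicates. Genes were put into 5 bins of equal size by length. The shortest bin took 12.4% to 17.5% of counts in saline and 20.2% to 28.9% in LPS. Members had a median length of 4.03 kb against 3.10 kb for all genes tested, and only 3 lay in that shortest bin. The same fit was therefore repeated with each library's trend of level on length removed. It then called 68 members lower (33.3%) and 12 higher (5.88%), against 18.0% and 20.6% of genes tested in that fit. For genes with a sum of at least 1000 the shares were 19.3% and 25.4%. Of the 90 lower calls 65 were kept, 25 were lost and 3 were gained, and the median log2 fold change of the members was -0.19. Of the 7 higher calls, those of Zfp622 and Zfp330 were kept. The share called higher with length removed was 3.92% without saline replicate 3, 2.94% without saline replicate 4 and 3.43% without LPS replicate 5.

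**Figure D1:**
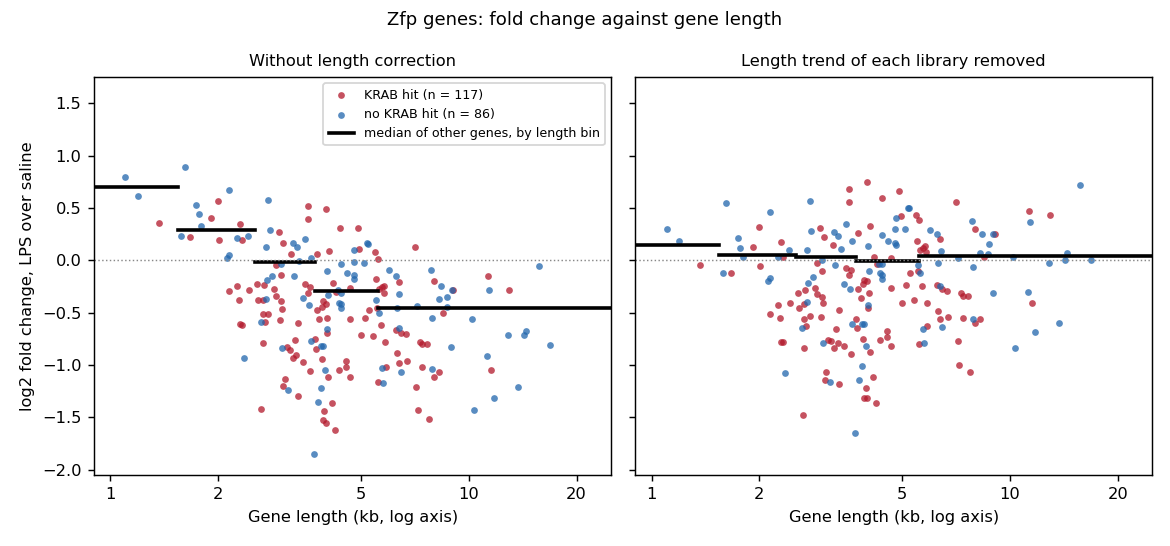
Log2 fold change of LPS over saline (vertical axis) against gene length in kb (horizontal log axis) for 203 Zfp genes, red with and blue without a KRAB hit, with the length trend left in (left) or removed (right); black bars are medians of the other genes in each length bin. On the left both the genes and the bars slope down, and on the right the bars lie near 0 while many red points stay below it.

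KRAB members were 117 of the 203 classed members and 59 of the 90 lower calls. Of 117 KRAB members 59 fell (50.4%) and 2 rose, with a median log2 fold change of -0.51. Of 86 members without KRAB 31 fell (36.0%) and 5 rose, with a median of -0.31. With length removed, 50 KRAB members were called lower (42.7%) and 5 higher, with a median of -0.34. For the other members the counts were 18 lower (20.9%) and 7 higher (8.14%), and their median was -0.00. Among all genes with a sum of at least 1000, 26.6% were called lower and 26.9% higher, or 19.3% and 25.4% with length removed. Members without KRAB were thus close to those genes in lower calls with length removed, and below them in higher calls. The difference between members with and without KRAB was not tested. Other genes with a KRAB hit, at least 3 fingers, a sum of at least 1000 and another kind of symbol, a set chosen after the data were seen, numbered 32. Of these 20 fell (62.5%), their median log2 fold change was -0.58, and with length removed 14 were called lower and 1 higher.

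**Figure D2:**
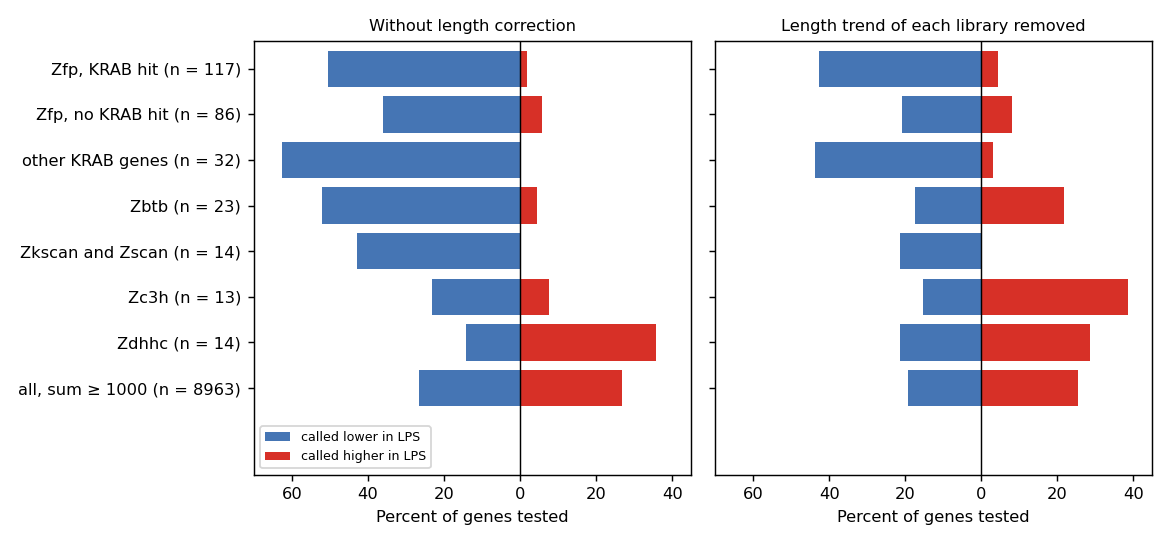
Percent of genes tested that edgeR called lower (blue bars, to the left of 0) or higher (red bars, to the right) in LPS, by class of zinc finger gene and for all genes with a sum of at least 1000, with the length trend left in (left) or removed (right). The red bar is short for Zfp genes with a KRAB hit in both panels, while the bottom bar has nearly equal sides on the left.

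Within bins of gene length the shares of the classes can be read side by side. In the middle bin, from 2.54 to 3.73 kb, 17 of 35 KRAB members were called lower (48.6%), against 6 of 20 members without KRAB (30%) and 21.4% of other genes. In bins 2 and 4 the members without KRAB were called lower less often than other genes. These were 1 of 11 (9.09%) beside 10.9% and 6 of 23 (26.1%) beside 32.8%, while KRAB members stood at 25% and 51.3%. With length removed the shares of members without KRAB in bins 2, 3 and 4 were 9.09%, 20% and 26.1%. Other genes then stood at 17.9%, 19.5% and 19.7%, and KRAB members at 41.7%, 48.6% and 41.0%. In the longest bin, above 5.58 kb, 63.3% of KRAB members, 60% of members without KRAB and 44.2% of other genes were called lower. With length removed these last shares became 40%, 23.3% and 18.3%. Finger number was also related to the change: across 203 members its Spearman correlation with the log2 fold change was -0.36, and -0.31 with length removed, while mean level had one of -0.03. These members mix both classes, and KRAB members have more fingers. Within the 117 KRAB members the correlation of finger number with the log2 fold change was -0.22 with length removed. Genes of 1 cluster may share sequence and reads, so these points cannot be taken as independent.

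**Figure D3:**
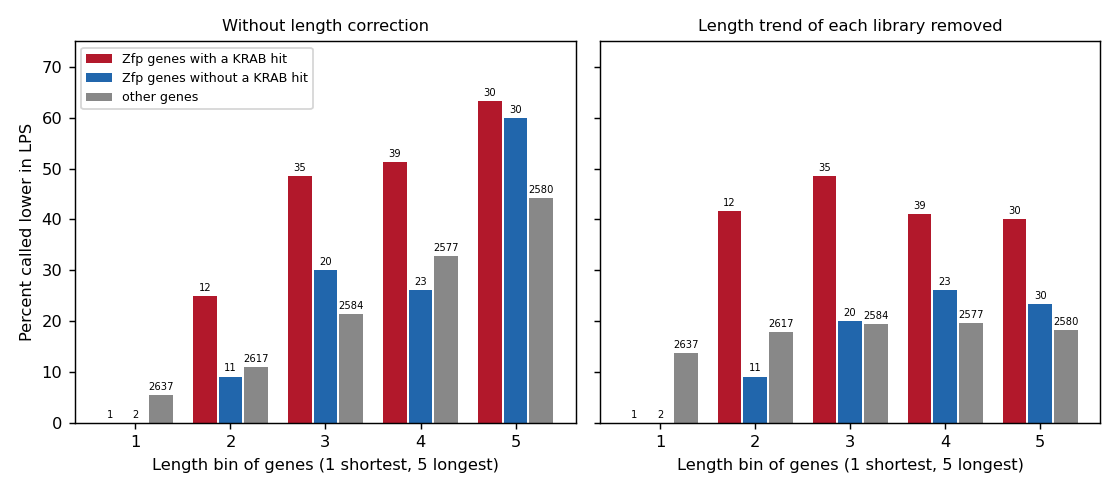
Percent of genes called lower in LPS (bars from 0) in each of 5 bins of genes by length, for Zfp genes with and without a KRAB hit and for other genes, with the number of genes above each bar. The red bars exceed the grey bars from bin 2 to bin 5 in both panels, and the shortest bin holds only 3 Zfp genes.

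The median member was lower in each treated mouse than in any saline mouse, while counts of members below the saline mean overlapped. Of the 204 members 98, 73, 102, 73 and 156 lay below that mean in saline replicates 1 to 5 and 157, 151, 161, 142 and 164 in LPS replicates 1 to 5. Saline replicate 5 thus had more such members than LPS replicates 2 and 4. Members took 0.821, 0.872, 0.805, 0.871 and 0.675% of all counts in saline replicates 1 to 5 and 0.657, 0.643, 0.564, 0.675 and 0.491% in LPS replicates 1 to 5. The groups did not overlap, but saline replicate 5 and LPS replicate 4 had nearly the same share. Without Zfp36, the member with the highest sum, the share was 0.638% to 0.811% in saline and 0.422% to 0.580% in LPS, which left a wider gap. The median KRAB member lay at 0.02, 0.14, 0.03, 0.05 and -0.24 on the log2 scale relative to the saline mean in saline mice, and at -0.48, -0.50, -0.43, -0.53 and -0.79 in LPS mice. With length removed the LPS values were -0.29, -0.28, -0.26, -0.40 and -0.51, and the lowest saline value was -0.15. The median member without KRAB lay between -0.08 and 0.02 in LPS mice and between -0.01 and 0.02 in saline mice with length removed, and the groups overlapped. The median of all genes with a sum of at least 1000 then lay higher, between 0.05 and 0.08 in LPS mice. LPS replicate 5, the lowest in KRAB members, also had the highest share of counts in short genes (28.9%).

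**Figure D4:**
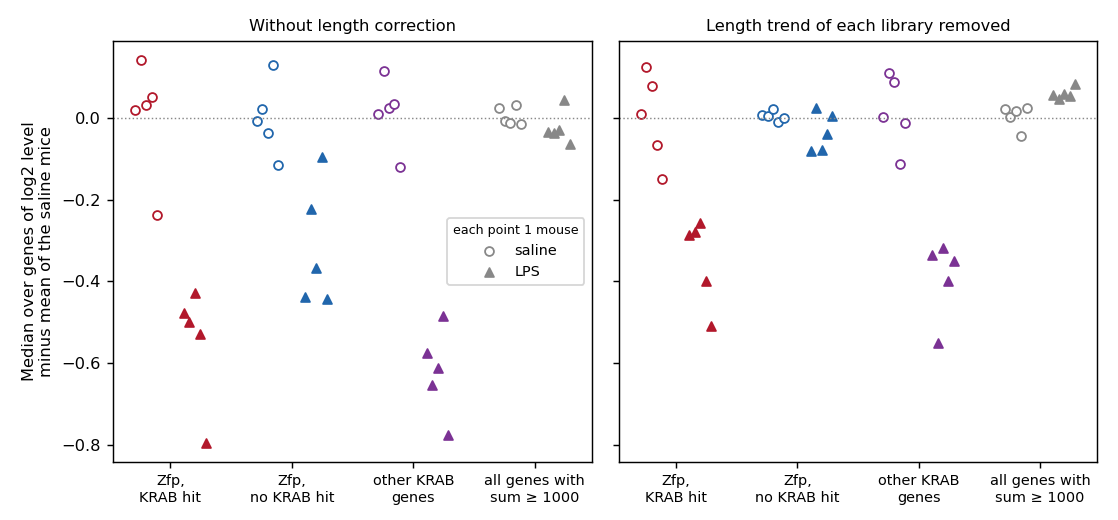
Median over the genes of a class of the log2 level in 1 mouse minus the mean of the saline mice (vertical axis), for 4 classes of genes, with open circles for saline and filled triangles for LPS mice. Triangles of both KRAB classes lie below all their circles in both panels. With the length trend removed, those of Zfp genes without a KRAB hit lie near 0, below those of all genes with a sum of at least 1000.

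Of the 10 members that fell furthest with no overlap between groups, 8 were KRAB genes. Zfp658, a KRAB gene with 21 fingers (chromosome 7, 43562202 to 43576142, GRCm38), stood at 124, 136, 118, 143 and 91.1 CPM in the saline mice and at 45.7, 23.7, 34.3, 58.7 and 36.9 CPM in the LPS mice. Every LPS mouse was below every saline mouse, and the mean fell 3.07-fold from 122 ± 19.96 to 39.9 ± 13.1 CPM (SD, n = 5 each; edgeR adjusted p = 4.02e-05). Zfp266, also a KRAB gene and among the highest of the family (chromosome 9, 20495068 to 20521419), read 135, 192, 146, 127 and 117 CPM in saline and 51.5, 53.2, 74.1, 59.1 and 27.4 CPM in LPS. Its log2 fold change was -1.43 ± 0.27 (SE), and -0.996 with length removed, with edgeR adjusted p-values of 0.000156 and 0.00262. The groups did not overlap, and LPS replicate 5 was the lowest mouse.

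Zfp69, a KRAB gene linked to lipid levels and diabetes in mice, has a short exonic length of 2.64 kb (chromosome 4, 120930133 to 120951701). It read 20.2, 18.4, 21.5, 28.8 and 22.9 CPM in saline mice and 7.87, 8.604, 8.62, 9.06 and 7.44 CPM in LPS mice. The LPS mice were tightly grouped and all below the saline mice, and the fall of -1.42 ± 0.12 on the log2 scale was -1.48 with length removed (edgeR adjusted p = 7.39e-06). Zfp60 fell from 19.4 ± 5.68 to 6.61 ± 1.34 CPM, Zfp712 from 12 ± 3.39 to 4.14 ± 1.42 CPM and Zfp760 from 18.7 ± 4.87 to 7.26 ± 2.04 CPM. Zfp169 fell from 14.3 ± 2.94 to 4.97 ± 2.41 CPM and Zfp37 from 15.4 ± 2.75 to 5.66 ± 2.17 CPM. These 5 are KRAB genes with 12 to 20 fingers, and each was called lower under all 24 alternatives. Zfp532, which has 10 fingers and no KRAB hit, fell 2.7-fold from 62.2 ± 4.36 to 23.02 ± 3.66 CPM and had the smallest adjusted p of the family by edgeR, 3.05e-06. It is 10.3 kb long, and its log2 fold change of -1.43 became -0.83 with length removed.

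**Figure D5:**
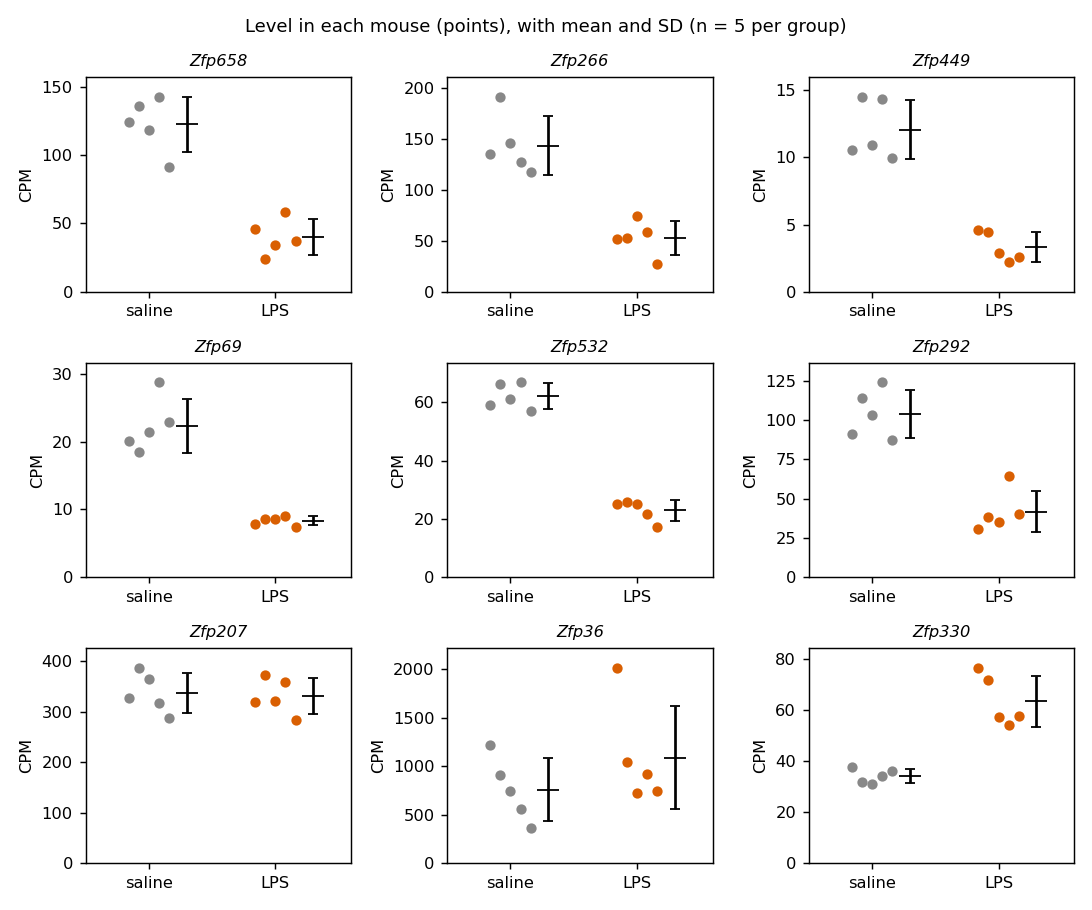
CPM in each mouse (points) with the mean and SD (n = 5 per group) for 9 Zfp genes; each panel starts at 0 and has its own scale. The groups are apart in Zfp658, Zfp266, Zfp449, Zfp69, Zfp532 and Zfp292, which are lower in LPS, and in Zfp330, which is higher, while they overlap in Zfp207 and Zfp36.

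The SCAN domain lets zinc finger proteins pair with each other, and all 6 members with a SCAN hit fell. Among all genes with a sum of at least 1000, 26.6% were called lower, or 19.3% with length removed. The set is small and its members were named after their values were seen. Of 14 Zkscan and Zscan genes 6 fell, or 3 with length removed. Zfp449 (chromosome X, 56346397 to 56365674) had the largest fall of the family, from 10.5, 14.5, 10.9, 14.3 and 9.97 CPM in saline to 4.602, 4.46, 2.87, 2.22 and 2.58 CPM in LPS. The groups did not overlap, the mean fell 3.61-fold and the log2 fold change was -1.85 ± 0.23 (edgeR adjusted p = 5.55e-05). Zfp263 fell from 184 ± 37.7 to 104 ± 34.2 CPM. Zfp110, a partner of the neurotrophin receptor p75 that also has a KRAB hit, fell from 109 ± 19.9 to 52.4 ± 10.4 CPM. Zfp191, known for its need in myelination by oligodendrocytes, fell from 99.9 ± 14.5 to 48.5 ± 9.69 CPM (log2 fold change -1.04, or -0.56 with length removed), and Zfp397 from 15.7 ± 4.004 to 6.96 ± 2.11 CPM. Zfp445, a KRAB and SCAN protein that keeps parental imprints, fell from 92.95 ± 17.95 to 57.5 ± 12.7 CPM. With length removed 5 of the 6 were still called lower, and Zfp445 was not (log2 fold change -0.28, edgeR adjusted p = 0.0857).

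Several regulators without KRAB fell too. Zfp143, which activates promoters of many housekeeping genes, read 76.3, 87.8, 63.8, 59.6 and 59.3 CPM in saline and 49.1, 51.5, 38.7, 34.7 and 20.3 CPM in LPS. All LPS mice were below the saline mice, LPS replicate 5 by the widest margin, and the log2 fold change was -0.84 ± 0.26 (edgeR adjusted p = 0.00636), or -0.79 with length removed. Zfp292, a large transcription factor gene of 11.8 kb, read 91.2, 114, 103, 124 and 87.5 CPM in saline and 30.5, 38.5, 35.2, 64.7 and 40.4 CPM in LPS. It fell 2.48-fold with no overlap (edgeR adjusted p = 0.0001), and by less with length removed (log2 fold change -0.69). Zfp148, a factor that binds GC-rich promoters, fell from 70.6 ± 5.21 to 37.5 ± 6.74 CPM, and its log2 fold change of -0.91 became -0.30 with length removed (edgeR adjusted p = 0.0472). Zfp318, which controls the choice between IgM and IgD transcripts in B cells, fell from 33.6 ± 6.09 to 20.5 ± 6.35 CPM in the fit with length left in. Its exonic length is 14.3 kb, its groups overlapped, and with length removed its log2 fold change was -0.00 (edgeR adjusted p = 0.995).

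Zfp809 is the KRAB protein that recognises the primer binding site of murine leukaemia viruses and silences them through Trim28. It read 42.7, 52.8, 52.9, 45.8 and 41.2 CPM in saline and 33.8, 39.6, 34.9, 38.1 and 34.7 CPM in LPS. The highest LPS mouse was just below the lowest saline mouse, and the fall was modest, -0.38 ± 0.09 on the log2 scale (edgeR adjusted p = 0.0241). The call was kept in 17 of 24 alternatives and was lost without saline replicate 2 or 3 and without LPS replicate 1, 3 or 5, with adjusted p-values by edgeR of 0.0542 to 0.0779. With length removed the fall was larger, -0.55, and edgeR gave an adjusted p of 0.00211.

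Of the partners through which KRAB proteins act, 29 were listed and 28 tested, and by edgeR 6 fell (21.4%) and 3 rose (10.7%). The lower share was close to the 22.5% of all genes tested, and the higher share stood beside 22.4%. Trim28 itself had a mean of 90.2 ± 16.5 CPM in controls and 88.2 ± 11.8 CPM after LPS (edgeR adjusted p = 0.877), and the histone methyltransferase gene Setdb1 one of 60.1 ± 10.3 and 46.9 ± 12.5 CPM (edgeR adjusted p = 0.127). Atf7ip, the cofactor that stabilises Setdb1, fell from 94.7 ± 6.11 to 43.6 ± 4.52 CPM. The DNA methyltransferase gene Dnmt3a fell from 132 ± 23.0 to 63.7 ± 13.3 CPM, but its call was lost with length removed (log2 fold change -1.05, then -0.37, edgeR adjusted p = 0.0888). Lower calls also included Morc3, Fam208a and Smarcad1, while Mphosph8, Chd3 and Uhrf1 were called higher. The Smarcad1 groups overlapped, and its call was lost with length removed (log2 fold change -0.36, then 0.06, edgeR adjusted p = 0.677). Uhrf1 was at very low levels, 1.22 ± 0.21 CPM in saline and 3.50 ± 3.26 CPM in LPS. The groups overlapped in Uhrf1 and in Chd3. Of the silencing complex HUSH, Mphosph8 rose from 33.0 ± 2.85 to 50.2 ± 5.53 CPM and Fam208a fell from 47.5 ± 4.06 to 28.6 ± 9.38 CPM. The Fam208a groups overlapped, and its call was lost with length removed (log2 fold change -0.73, then -0.19, edgeR adjusted p = 0.279), while that of Mphosph8 was kept. With length removed 4 of the 28 were called lower (14.3%) and 5 higher (17.9%), beside 18.0% and 20.6% of all genes. Only 1 was called higher without saline replicate 2, 3 or 5 or LPS replicate 3, each left out in turn.

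The 7 members that rose were short genes with a median length of 1.91 kb, against 4.29 kb for those that fell. Zfp330, a nucleolar protein gene (chromosome 8, 82763618 to 82774145), read 37.7, 31.7, 30.9, 33.9 and 36.2 CPM in saline and 76.4, 71.5, 56.99, 54.1 and 57.5 CPM in LPS. Every LPS mouse was above every saline mouse, the rise was 1.86-fold (edgeR adjusted p = 0.000141), and the log2 fold change was 0.89 and 0.55 with length removed. Zfp511 rose from 10.9 ± 2.39 to 19 ± 4.03 CPM with no overlap, but its log2 fold change of 0.79 became 0.30 with length removed (edgeR adjusted p = 0.115). Zfp622, which acts in maturation of the large ribosomal subunit, rose from 10.2 ± 1.57 to 15.2 ± 4.1 CPM (edgeR adjusted p = 0.0317). Its groups overlapped, and the call was kept in 16 of 24 alternatives. Among the fits that lost it were those without saline replicate 2, 3 or 4 or LPS replicate 5. Zfp707, a KRAB gene, rose from 20.5 ± 2.597 to 27.1 ± 2.68 CPM, and its call was kept in 14 of 24 alternatives. It was lost with length removed (log2 fold change 0.40, then 0.12, edgeR adjusted p = 0.513). Library size only, no filter and mouse-number ranges as a term lost it too. So did leaving out saline replicate 1 or 2 or LPS replicate 4 or 5. Zfp1, Zfp414 and Zfp653 were the other higher calls.

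Zfp36, or tristetraprolin, binds AU-rich elements and speeds decay of mRNAs of inflammatory cytokines such as Tnf. Per length it was the highest member, at 435 CPM per kb in saline and 625 CPM per kb in LPS. It read 1216, 905, 739.9, 555 and 366 CPM in saline and 2016, 1039, 720.5, 916 and 746 CPM in LPS. LPS replicate 1 was highest of its group and saline replicate 1 of the other, and the groups overlapped widely. The log2 fold change was 0.52 ± 0.40 (edgeR adjusted p = 0.193), and 0.60 with the range of mouse numbers as a term (edgeR adjusted p = 0.0495). It was 0.19 without LPS replicate 1, 0.34 without saline replicate 5 and 0.21 with length removed, and ran up to 0.75 without saline replicate 1. Its relatives Zfp36l1 and Zfp36l2 were at 146 ± 34.4 and 109 ± 8.76 CPM in saline and at 150.3 ± 35.9 and 144 ± 90.0 CPM in LPS, with edgeR adjusted p-values of 0.876 and 0.262.

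Other members with known cell functions were not called. Zfp207, a kinetochore and spindle protein, was at 327, 387, 365, 318 and 288 CPM in saline and 318, 372, 322, 359 and 284 CPM in LPS, and the groups overlapped throughout (edgeR adjusted p = 0.891). Zfp598, the ubiquitin ligase that marks collided ribosomes, was at 19.2 ± 3.43 and 20.9 ± 3.75 CPM. Zfp410, an activator of Chd4, was at 82.8 ± 10.2 and 74.6 ± 7.297 CPM. Zfp91, a ubiquitin ligase of the noncanonical NF-kappa B pathway, was at 23.5 ± 8.73 and 18.01 ± 2.68 CPM. Zfp335, Zfp131, Zfp106, Zfp326, Zfp609 and Zfp703 were also not called. Zfp281, a factor studied in pluripotent stem cells, was at 35.5 ± 4.63 and 39.8 ± 6.86 CPM and was called higher with length removed alone (log2 fold change 0.50, edgeR adjusted p = 0.00723). Zfp217, which works with the corepressor CtBP, changed sign, from -0.09 to 0.38 with length removed (edgeR adjusted p = 0.0466). That fit was the only 1 of 24 alternatives to call Zfp217.

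Most members were expressed at low levels. The median of the mean level was 19.8 CPM, most (169 of 204) were under 50 CPM and 7 reached 100 CPM. By mean CPM over both groups, Zfp36 and Zfp207 were followed by Zfp263, Zfp706, Zfp62, Zfp740, Zfp120 and Zfp90. Zfp62 fell from 149.7 ± 24.8 to 73.3 ± 11.6 CPM, a log2 fold change of -1.03, or -0.65 with length removed. Zfp120 fell from 123 ± 11.2 to 84.5 ± 13.98 CPM, but with length removed it was not called (log2 fold change -0.55, then -0.31, edgeR adjusted p = 0.103), while Zfp706, Zfp740 and Zfp90 were not called. Just inside the limit of the rule lay Zfp689 (sum of 1012), Zfp54 (1024) and Zfp273 (1034), with log2 fold changes of 0.52, 0.49 and -0.14. Just outside lay Zfp764 (996), Zfp772 (990) and Zfp444 (967), with 0.02, 0.11 and -0.89. Among Zfp genes below the sum 82 were tested, of which 24 were called lower (29.3%) and 2 higher (2.44%). The shares of all genes tested, of any sum, were 22.5% and 22.4%. Of the Zfp genes looked up for their roles, Zfp57 (560), Zfp568 (906), Zfp384 (769), Zfp593 (422) and Zfp462 (6) were below the sum.

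KRAB genes sit in clusters, and with length left in the fall was found in most of them. Runs of at least 4 members in which each start lay within 500 kb of the next formed 11 clusters with 81 members, of which 40 were called lower and 1 higher. Outside clusters 50 of 123 were called lower. Among all genes with a sum of at least 1000, 26.6% were lower and 26.9% higher. With length removed 33 of the 81 were called lower, beside 19.3% of those genes. The cluster median log2 fold change was then positive on chromosomes 6 (0.20) and 9 (0.02) and on chromosome 7 from 127442136 (0.12). Most clustered members had a KRAB hit, and the difference from members outside was not tested. The cluster on chromosome 17 from 21008941 to 23193284 held 15 members, all with a KRAB hit, and 8 were called lower, with length left in and with it removed. The cluster on chromosome 13 from 67038594 to 67827000, which includes Zfp712, held 11 KRAB members and 6 lower calls. On chromosome 7 from 29768552 to 30169775, 7 of 11 members were called lower, Zfp260 among them (84.97 ± 18.4 to 33.2 ± 3.35 CPM). The 6 members on chromosome 6 from 47835633 to 48445992 had log2 fold changes between -0.38 and 0.09. Where members of a cluster are close copies, reads that fit several of them could be split or lost in the authors' counting, so single values there are uncertain; similarity between members was not measured.

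Zinc finger genes of other kinds, also with a sum of at least 1000, can be set beside all genes at that sum. Of those 26.6% were lower and 26.9% higher, or 19.3% and 25.4% with length removed. Of 23 Zbtb genes, which pair a BTB domain with fingers, 12 fell (52.2%) and 1 rose, but with length removed 4 were called lower (17.4%) and 5 higher (21.7%), close to all genes. Of 14 Zkscan and Zscan genes 6 fell (42.9%), or 3 with length removed (21.4%). Zkscan5, Zkscan8, Zkscan14 and Zkscan17 are also among the other genes with a KRAB hit described above. Of 13 Zc3h genes, which bind RNA, 3 fell (23.1%, close to all genes) and 1 rose, and with length removed 2 were lower and 5 higher. Of 14 Zdhhc genes, which encode palmitoyl transferases, 2 fell (14.3%) and 5 rose (35.7%), and with length removed 3 were lower and 4 higher. None of the differences between these families and the Zfp genes was tested.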

How the data were processed

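RNA was measured in sorted microglia of 5 LPS and 5 saline mice. The authors deposited raw counts, made with featureCounts on GRCm38 (mm10) per the submitters' processing notes. Aligner, annotation and strand setting were not given in the sources used here, and overlapping and antisense genes cannot be told apart. The authors also deposited normalised RPKM values in 2 tables, each a product of the count, a library factor and a gene factor (within 2% in 100% of 8681 and 8207 genes); relative gene lengths came from them, for 13199 genes. An unnamed empty last row was dropped.

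The count test was edgeR 4.0.16 under R 4.3.3 (TMM, filterByExpr, quasi-likelihood F test, Benjamini-Hochberg at 0.05, no covariate); standard errors come from log2 CPM with a prior count of 2. A second fit took each library's lowess trend (span 0.3) of log2 CPM on log length out as offsets. Depth limits the precision of low genes; reads carry no molecular identifiers. The scripts were tested on simulated counts. Alternatives were other scalings and filters, DESeq2 1.42.0, limma-voom (limma 3.58.1), limma on log2(RPKM + 1) and log2(RPKM + 0.1), mouse-number ranges as a term, other lengths and each mouse left out. Summaries used Python 3.11.15 with scipy 1.17.1.

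RefSeq proteins had been planned for the domain classes; none were at hand, so GENCODE M21 coding sequences were translated, fingers counted by pattern and KRAB, SCAN and BTB domains found with HMMER 3.4 profiles (E of 0.0001) built from MAFFT 7.526 alignments. Members and lists were chosen with earlier results of these data known. Named were the 8 members with the highest mean CPM, the largest falls (10) and rises (up to 8) among called members without overlap, members called in opposite directions in the 2 fits (none was), those next to the limit, and members with known roles; Zfp1, Zfp414, Zfp653, Zfp260 and the SCAN members were named after their values were seen. A result on 1 gene of the corepressor list is not reported here.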

Additional observations from a re-analysis of the deposited data

Results flagged for a closer look

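A pair of values stood apart from the other mice of their group by Dixon's ratio, among 92 groups of 5 mice examined; chance flags about 1 group in 20. Zfp36 was at 2016 CPM in LPS replicate 1, above the other LPS mice (gap to the next mouse over the range of 0.754, above Dixon's critical value). The median KRAB member lay at -0.79 on the log2 scale relative to the saline mean in LPS replicate 5, below the other LPS mice (0.724). Without LPS replicate 5, edgeR called 78 members lower, all among the 90.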

How the results depend on the processing

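Of 24 alternatives, 55 members were called lower and 1 higher (Zfp330) in every one and in the fit as reported. The share called higher, 3.43% as reported, was 1.47% with library size only, 1.96% with no filter, 5.88% with length removed and 5.66% among members with a sum of at least 5000; leaving out 1 mouse gave 1.96% to 3.92%. KRAB members called higher, 1.71% as reported, were 0% with library size only, 0.855% with no filter or with mouse-number ranges, 2.56% by DESeq2, limma-voom or GENCODE lengths, 3.42% in the RPKM fits and 4.27% with length removed, also with protein-coding genes alone; 0% to 2.56% with 1 mouse left out. Of members without KRAB, 36.0% as reported, 20.9% were called lower with length removed and 23.3% with protein-coding genes alone or GENCODE lengths; their share called higher of 5.81% was 3.49% with library size only or no filter and 3.49% to 5.81% with 1 mouse left out. Corepressor genes called higher, 3 as reported, numbered 5 with length removed, 5 with protein-coding genes alone and length removed, and 6 with GENCODE lengths; 1 to 3 with 1 mouse left out. With length removed, the share called higher of 5.88% was 3.92% with GENCODE lengths, 2.94% with library size only and 2.94% to 6.86% with 1 mouse left out. The median log2 fold change was -0.19 with length removed, -0.22 with protein-coding genes alone and length removed, and -0.25 with GENCODE lengths, and -0.45 to -0.36 with 1 mouse left out. The share of counts in LPS was 0.50% without Zfp36. Zfp217 turned to 0.38 with length removed. The cause was not tested. The share called lower was 38.2% to 45.1% with 1 mouse left out and 26.0% to 32.4% with length removed as well. Of 982 values for 41 named members 927 kept direction and side of the threshold, 34 lost the call, 20 gained one and 1 reversed. DESeq2, limma-voom and RPKM versions of the fit with length removed were not run. No paired analysis was possible because the labels give the mice separate numbers that pair no saline with an LPS mouse.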
